A study of Mus musculus with 6 samples.

Results

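Heterogeneous nuclear ribonucleoproteins (hnRNPs), polypyrimidine tract binding (PTB) proteins and related tissue-biased splicing regulators are encoded by the 41 genes described here. They were chosen by name, all 41 were found among the 55850 gene rows of the table, and all 41 passed the filter on low values, a mean of at least 1 FPKM, with 14238 genes tested in all. FPKM is a read or fragment count scaled by gene length and by library size. RNA of whole mouse testis was sequenced in 3 libraries of genotype WT (WT 1 to WT 3) and 3 of genotype CKO, a conditional knockout (cKO 1 to cKO 3), with no treatment in either group. By the series title, the gene removed encodes SRSF2, a splicing factor of the SR family, and the cells that lose it are Sertoli cells, which nurse germ cells. The labels name neither strain, age, Cre driver nor the deleted part of the gene.

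SR proteins such as SRSF2 mostly promote the use of the exons they bind. hnRNPs coat nascent transcripts, and many of them repress exons, so that the balance between both classes of protein helps to set which exons a cell keeps. PTB proteins bind pyrimidine-rich stretches. PTBP1 is widespread, whereas PTBP2 is best known from neurons and, in the testis, from germ cells. Many of these regulators limit their own level by splicing that sends their transcripts to nonsense-mediated decay, the pathway that destroys transcripts with an early stop codon. PTBP1 does this to its own transcript and to that of Ptbp2, by causing a short cassette exon to be skipped.

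That exon is shown for both genes because it is the known link between them. In GENCODE M21 it had 34 bases in each gene, and both decay-type transcripts that span it lacked it in Ptbp1 and in Ptbp2. It lies at chr10:79862014-79862047 (plus strand) in Ptbp1 and at chr3:119724612-119724645 (minus strand) in Ptbp2, on GRCm38. The copies shared 26 of 34 bases, 76.5%, and capitals mark the 8 that differ.
Ptbp1 cassette exon: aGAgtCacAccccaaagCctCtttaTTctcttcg
Ptbp2 cassette exon: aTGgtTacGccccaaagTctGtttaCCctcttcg
The deposited data give a single value per gene and library, so inclusion of this exon was not measured.

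Promoters are shown for the members with the lowest p in each direction that had an entry, Ptbp2 and Qk on the higher side and Hnrnph3 and Hnrnpab on the lower side. Each is the 250 bases before the RefSeq start (GRCm38.p6, all on the minus strand, written 5′ to 3′ on the gene's strand), at chr3:119783389-119783638 for Ptbp2, chr17:10319362-10319611 for Qk, chr10:63023850-63024099 for Hnrnph3 and chr11:51606882-51607131 for Hnrnpab. Capitals mark matches, on either strand, to 6 motifs that were searched: the CCAAT box, the GC box GGGCGG, the ETS-type CCGGAAG, the TATA box TATAAA, the NRF1 motif and the CRE TGACGTCA. Neighbouring GC boxes can overlap. By the GENCODE M21 gene positions, the windows of Ptbp2, Qk and Hnrnph3 lie inside the gene, and only that of Hnrnpab lies before it.
Ptbp2 promoter: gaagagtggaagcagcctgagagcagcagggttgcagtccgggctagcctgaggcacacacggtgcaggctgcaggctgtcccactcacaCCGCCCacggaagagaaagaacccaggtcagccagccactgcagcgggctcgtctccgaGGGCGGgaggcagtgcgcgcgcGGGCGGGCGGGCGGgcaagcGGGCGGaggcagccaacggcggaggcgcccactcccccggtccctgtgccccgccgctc
Qk promoter: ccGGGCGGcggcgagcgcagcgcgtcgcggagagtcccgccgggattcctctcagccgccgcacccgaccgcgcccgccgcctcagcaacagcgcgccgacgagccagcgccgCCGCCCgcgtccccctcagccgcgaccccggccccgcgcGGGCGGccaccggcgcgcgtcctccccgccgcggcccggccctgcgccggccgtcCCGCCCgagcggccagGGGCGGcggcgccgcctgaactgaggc
Hnrnph3 promoter: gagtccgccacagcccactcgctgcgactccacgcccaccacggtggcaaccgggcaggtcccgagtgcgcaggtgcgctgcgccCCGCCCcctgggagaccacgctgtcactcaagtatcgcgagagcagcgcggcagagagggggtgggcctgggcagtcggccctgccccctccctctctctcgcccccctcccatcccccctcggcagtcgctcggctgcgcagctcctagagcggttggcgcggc
Hnrnpab promoter: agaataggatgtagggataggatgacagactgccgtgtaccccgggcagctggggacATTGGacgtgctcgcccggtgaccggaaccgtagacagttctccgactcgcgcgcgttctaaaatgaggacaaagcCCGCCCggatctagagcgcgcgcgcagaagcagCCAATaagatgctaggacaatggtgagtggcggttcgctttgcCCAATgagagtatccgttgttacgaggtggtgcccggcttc
GC boxes were found in all 4 promoters, 6 in Ptbp2, 5 in Qk and 1 each in Hnrnph3 and Hnrnpab, and CCAAT boxes, 3 of them, in Hnrnpab. Over the 51 windows of 300 bases held for 35 members, 70.6% had a GC box, against 63.1% of the 12848 windows of tested genes and 35.7% of all 32851 windows. For CCAAT the shares were 41.2% of member windows, 37.9% of those of tested genes and 37.4% of all. For CCGGAAG they were 13.7%, 17.1% and 8.86%, and for TATAAA 7.84%, 7.02% and 13.6%. The NRF1 motif stood in 1.96%, 2.04% and 0.971% of these windows, and TGACGTCA in 0 of the 51 member windows, 2.90% and 1.79%. The median member window held 27 CpG dinucleotides, against 20 for tested genes and 7 for all.

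Depth was even, at 16070287 to 17281330 recovered reads per library, and each member had 81 to 21650 reads in a library. Members' reads made up 1.23 ± 0.0363% of a WT library and 1.21 ± 0.0178% of a cKO library (SD, n = 3). The 18S rRNA share was 1.58 to 2.09% in WT and 0.727 to 0.835% in cKO, and the mitochondrial share 1.66 to 1.98% and 2.39 to 2.97%. Srsf2, the targeted gene, was at 127, 96.7 and 102 FPKM in WT and at 74.0, 87.3 and 87.3 FPKM in cKO libraries (limma adjusted p = 0.384). All 13 Sertoli markers tested had a negative log2 difference, with none at 0. At an unadjusted limma p under 0.05, 9 of them, 69.2%, were lower, against 7.68% of all tested genes, and none passed after adjustment. Their summed level was 1375 to 1818 FPKM in WT and 896 to 1077 FPKM in cKO. Of 12 germ cell markers 11 were tested, with 9 positive and 2 negative log2 differences and a median of 0.22, and 3 of them, 27.3%, were higher at an unadjusted p under 0.05, against 4.65% of all tested genes. Their summed level overlapped, at 199 to 366 FPKM in WT and 249 to 361 FPKM in cKO, and none was at 0 in all libraries. Of 10 meiosis markers 9 were tested and all 9 were positive, with a median of 0.33 and overlapping sums of 26.8 to 61.5 and 44.7 to 66.5 FPKM. The 7 spermatid markers summed to 1.65 to 3.29 FPKM, with 6 of 7 below a mean of 1 FPKM. Of 5 neuron markers 3 were below a mean of 1 FPKM, and the other two differed in sign. Tubb3 made up most of their sum and was at 17.5 to 19.6 FPKM in WT and 10.8 to 15.4 FPKM in cKO, while Syt1 was at 1.18 to 1.31 and 1.46 to 1.92 FPKM. The sum of 5 blood markers was 2712 to 5657 and 4860.4 to 6438 FPKM. Leydig and myoid sums overlapped between groups, whereas stroma, endothelium and macrophage sums were lower in every cKO library. The margins were narrow, with lowest WT and highest cKO sums of 947 and 941 FPKM for stroma. They were 81.4 and 79.9 FPKM for endothelium, and 25.5 and 24.7 FPKM for macrophages. Stroma had 2 positive and 5 negative markers, and endothelium 1 and 5. At an unadjusted limma p under 0.05, 3 of 7 stroma, 2 of 5 tested myoid, 2 of 6 endothelium and 2 of 7 macrophage markers were lower. These shares were 42.9%, 40.0%, 33.3% and 28.6%, against 7.68% of all tested genes. No marker of these lists was higher at that p, and none passed after adjustment. Col1a1 and Col1a2, the largest parts of the stroma sum, overlapped between groups, as did Cdh5, the largest part of the endothelium sum. Of the 7 macrophage markers, however, 4 were positive and 3 negative, with a median of 0.04, and only C1qa and C1qb had separate groups. In whole tissue, fewer cells of a type and less RNA per cell cannot be told apart, and the part of cell makeup in the results below was not tested. No label ties a library to an animal of its own, and p-values therefore cover only the spread between these libraries, which may be technical.

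**Figure D1:**
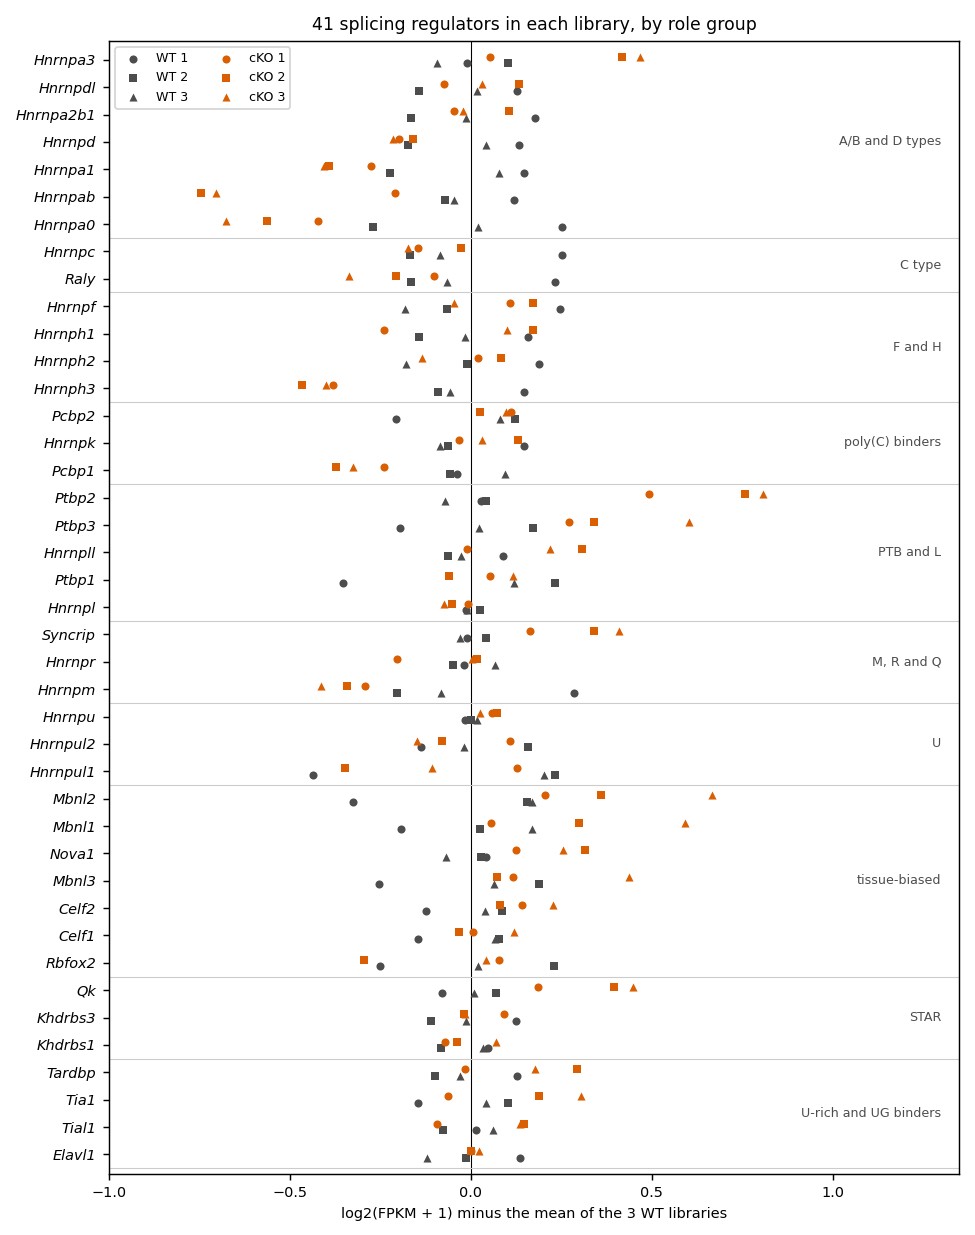
Each row is 1 of the 41 members, grouped by role. The horizontal axis is log2(FPKM + 1) in each library minus the mean of the 3 WT libraries, with WT in grey, cKO in orange and replicates by shape. Ptbp2 stands farthest to the right and Hnrnpa0 and Hnrnpab farthest to the left, and most members scatter about 0 in both groups.

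No member passed the threshold of 0.05 after adjustment over all genes, and the lowest adjusted p was 0.306, for Ptbp2 (limma on log2(FPKM + 1), Benjamini-Hochberg). Of all genes, 1 was called higher and 1 lower, 0.00702% of tested genes each. At an unadjusted p under 0.05, 4 of 41 members were higher, 9.76% against 4.65% of all tested genes, namely Ptbp2, Qk, Ptbp3 and Syncrip. On the lower side stood 6 of 41, 14.6% against 7.68%, namely Hnrnph3, Hnrnpab, Hnrnpa0, Pcbp1, Hnrnpa1 and Hnrnpm. These counts, 4 and 6, became 7 and 4 when cKO 1 was left out, 2 and 2 when cKO 2 was, 1 and 1 when cKO 3 was, and 3 and 3 when WT 3 was. The shares of all tested genes also moved, from 4.65% and 7.68% to 7.42% and 9.42%, 1.66% and 3.72%, 1.89% and 3.37%, and 3.28% and 4.41% in that order. The split of all tested genes, 662 higher and 1094 lower, was 900 and 741 on the TPM scale, 868 and 1016 with quantile normalization and 1058 and 999 with voom on recovered reads. By the spread of libraries alone, every cKO library lay above every WT library for 7 members, 17.1% against 8.69% of tested genes, and below for 6, 14.6% against 9.92%. The median log2 difference, cKO minus WT, was 0.03 over members and 0.00493 over all tested genes, with 25 of 41 members positive, 61.0% against 50.8%.

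GC content moved with these differences across the whole table. Its part in the difference of any member was not tested. Over 13945 tested genes with a known value, Spearman's correlation between GC content and log2 difference was -0.61, and over the 41 members it was -0.64. With gene length it was 0.27 over 14238 genes and 0.58 over the members. These genes share the same 6 libraries, so the values are descriptions. The 4 higher members had 34.2 to 41.1% GC and a median length of 10736 bases, the 6 lower ones 44.1 to 57.8% GC and a median length of 2967 bases, and the median GC content was 42.9% for members and 49.8% for tested genes. Per library, a gene's deviation from its mean correlated with GC content at 0.25, 0.34 and 0.41 in WT 1 to WT 3, at 0.17 in cKO 1, and at -0.58 and -0.55 in cKO 2 and cKO 3. The library cKO 1 was the lowest cKO library for 6 of the 7 members above WT and the highest for all 6 members below it.

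With each library's trends on length and GC content removed, 10 members had a positive and 31 a negative difference. Their median was -0.08, against 0.00523 over all tested genes in the same fit. At an unadjusted p under 0.05, 2 members, Ptbp2 and Mbnl2, then stood on the higher side, 4.88% against 3.15% of all tested genes. On the lower side stood 6, 14.6% against 5.41%, namely Hnrnph3, Hnrnpa1, Hnrnpab, Hnrnpa0, Hnrnpd and Hnrnph1. No adjusted p passed in that fit, the lowest being 0.355 for Hnrnph3 (limma).

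**Figure D2:**
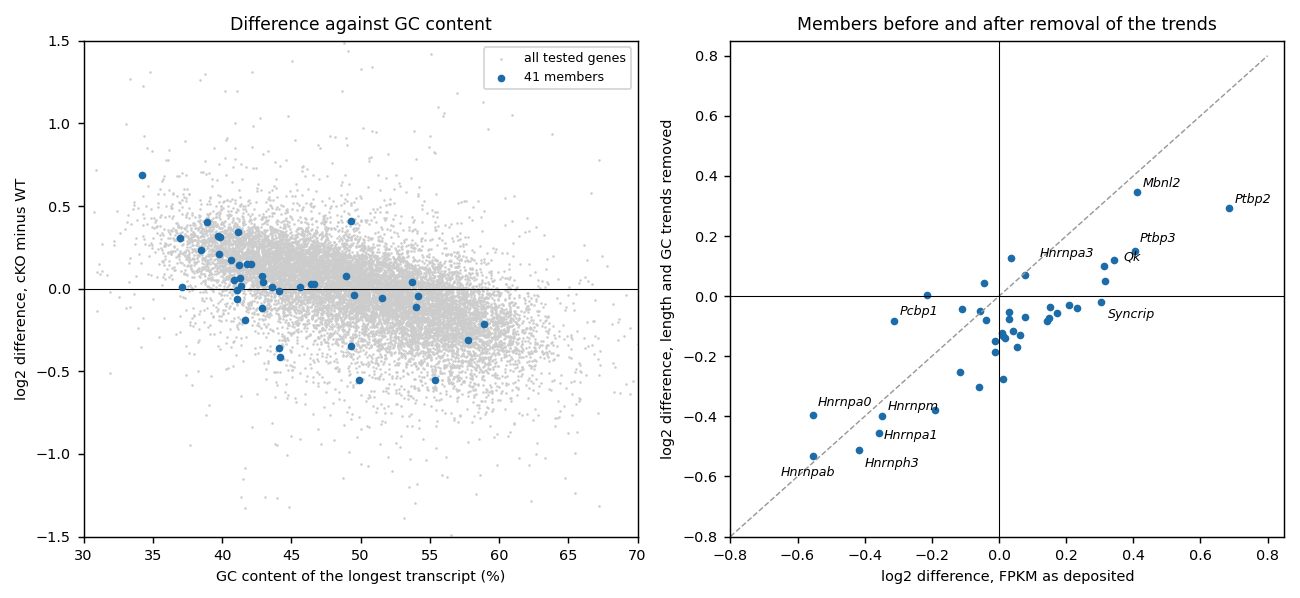
Left, the log2 difference (cKO minus WT) of each tested gene (grey) and of the 41 members (blue) against the GC content of the gene's longest transcript, with 24 genes beyond the axes not drawn. Right, the members' log2 difference from FPKM as deposited (horizontal) and after removal of length and GC trends (vertical), with the dashed line at equal values. Ptbp2 moves from 0.69 to 0.29 and Syncrip from 0.30 to -0.02, while Hnrnph3 and Hnrnpa1 lie below the line.

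Among PTB and L proteins, Ptbp2 differed most. Its level was 6.39, 6.47 and 5.90 FPKM in WT 1 to 3 and 9.20, 11.3 and 11.7 FPKM in cKO 1 to 3. Every cKO library lay above every WT library, and the lowest of them exceeded the WT mean of 6.26 ± 0.309 FPKM (SD, n = 3) by more than the WT spread. The cKO mean of 10.7 ± 1.34 FPKM was 171% of the WT mean. On the log2 scale the difference was 0.69, with an SE of 0.12 and a 95% interval from 0.41 to 0.97 (adjusted p = 0.306 by limma). It was 0.29 with length and GC trends removed (adjusted p = 0.492), and at 34.2% its GC content was the lowest of the members. The summed level of germ cell markers, whose part in the Ptbp2 result was not tested, was 366, 266 and 199 FPKM in WT 1 to 3 and 358, 361 and 249 FPKM in cKO 1 to 3, with 9 of 11 tested markers positive. The gene (ENSMUSG00000028134) lies at chr3:119718742-119784466 on the minus strand, and GENCODE M21 has no second gene over its exons.

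Ptbp1, the widespread paralog, was at 58.6, 88.4 and 81.5 FPKM in WT and 77.9, 71.9 and 81.4 FPKM in cKO libraries. The groups overlapped, with WT 1 the lowest of all 6, and the log2 difference was 0.04 with a 95% interval of -0.35 to 0.43. Its exon overlaps with E130317F20Rik, Gm17134 and Plppr3, all on the opposite strand, sum to 983 bases, against 4740 exon bases. Ptbp3, the third PTB paralog, was at 16.0, 20.9 and 18.7 FPKM in WT and 22.4, 23.6 and 28.4 FPKM in cKO libraries, again without overlap. Its difference in log2 was 0.40 (SE 0.14, limma adjusted p = 0.379), and 0.15 with length and GC trends removed. Of the summed FPKM of the PTB family, Ptbp1 made up 75.2 ± 2.44% in WT and 68.5 ± 2.30% in cKO, Ptbp2 6.35 ± 1.34% and 9.52 ± 1.08%, and Ptbp3 18.5 ± 1.11% and 22.0 ± 1.47% (SD, n = 3). Hnrnpl, which binds CA-rich RNA, varied little, from 69.7 to 74.8 FPKM over all libraries. Its paralog Hnrnpll, known from lymphocytes, was at 9.47 to 10.6 FPKM in WT and 9.86 to 12.5 in cKO.

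The balance between paralogs was compared within each library, as the log2 ratio of (FPKM + 1). The log2 ratio of Ptbp2 to Ptbp1 was -3.01, -3.58 and -3.58 in WT and -2.95, -2.57 and -2.70 in cKO libraries, a mean difference of 0.65, and of 0.73 in recovered reads per kilobase. The WT 1 and cKO 1 values lay 0.0577 apart, so the groups were separate by a small margin only. The ratios of Ptbp3 to Ptbp1, Celf2 to Celf1 and Pcbp2 to Pcbp1 also did not overlap, with differences of 0.37, 0.12 and 0.39. Each of these 4 had p = 0.1 in an exact permutation test (two-sided), below which 3 against 3 cannot go, and 0.225 after adjustment over the 9 ratios compared. The ratios that overlapped were Hnrnpll to Hnrnpl (0.22), Mbnl2 to Mbnl1 (0.09), Khdrbs3 to Khdrbs1 (0.03), Hnrnph2 to Hnrnph1 (-0.02) and Hnrnpul2 to Hnrnpul1 (0.07), given as differences of log2 ratios. Paralogs differ in GC content, which at 34.2% for Ptbp2 and 53.7% for Ptbp1 does not cancel in a ratio. With both trends removed, the log2 differences of these genes were 0.29 and 0.13. In that fit Ptbp3 was at 0.15, Celf2 and Celf1 at -0.07 and -0.08, and Pcbp2 and Pcbp1 at -0.07 and -0.08. Ptbp3 thus differed little from Ptbp1, Celf2 from Celf1 and Pcbp2 from Pcbp1 once the trends were removed. Ptbp2 and Ptbp1, at 0.69 and 0.04 before removal, also stood much closer together after it.

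**Figure D3:**
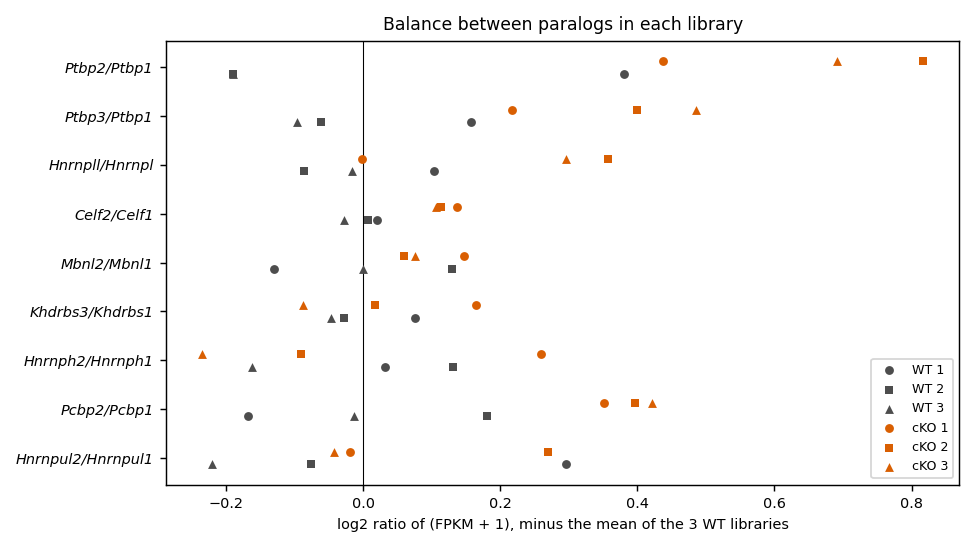
Log2 ratio of (FPKM + 1) between paralogs in each library, minus the mean of the 3 WT libraries, for the 9 pairs compared (WT grey, cKO orange, replicates by shape). All cKO points of Ptbp2/Ptbp1, Ptbp3/Ptbp1, Celf2/Celf1 and Pcbp2/Pcbp1 lie to the right of the WT points, while the other 5 pairs overlap.

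The A/B and D types are abundant hnRNPs that bind newly made transcripts and many of which silence exons. They summed to 1036 ± 132 FPKM in WT and 826 ± 41.1 FPKM in cKO (SD, n = 3), and 4 of 7 had a negative difference. Hnrnpa0, the most abundant member of all and a binder of AU-rich elements, was at 389.8, 271 and 331 FPKM in WT and at 244, 221 and 204 FPKM in cKO libraries. No libraries overlapped, and the difference in log2 was -0.55 (SE 0.17, limma adjusted p = 0.372, 95% interval -0.95 to -0.16). With trends removed it was -0.39, and with quantile normalization -0.35. Hnrnpab was at 169, 148 and 151 FPKM in WT and at 134, 92.5 and 95.2 FPKM in cKO libraries. Its log2 difference was also -0.55 (SE 0.17, limma adjusted p = 0.372), and -0.53 with trends removed, although cKO 1 stood well above the other two. Of its 2782 exon bases, 809 also belong to Phykpl on the opposite strand.

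Hnrnpa1, a strong exon silencer that counters SR proteins, was at 275, 213 and 262 FPKM in WT and at 205, 189 and 187 FPKM in cKO libraries. The margin was narrow, between WT 2 and cKO 1, and it differed by -0.36 on the log2 scale (SE 0.15, limma adjusted p = 0.397), -0.46 with trends removed and -0.20 with quantile normalization. Hnrnpa2b1, which also binds RNA for transport, overlapped fully at 155 to 196 FPKM in WT and 168 to 187 in cKO. Hnrnpd, the AU-rich element binder AUF1, was at 31.6 to 39.3 FPKM in WT and 30.6 to 31.9 FPKM in cKO. Hnrnpdl had a log2 difference of 0.03 with a 95% interval of -0.26 to 0.32.

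Hnrnpa3 had a positive difference, at 19.4, 21.1 and 18.3 FPKM in WT and 20.3, 26.5 and 27.4 FPKM in cKO libraries, with cKO 1 inside the WT range. Its difference in log2 was 0.31 (SE 0.14, limma adjusted p = 0.408), and 0.10 with trends removed. This value is uncertain, because 36 pseudogene rows of the table carry the protein name of this gene and took 57.6% of the reads of gene and copies together. The copy Gm6793 alone, chosen after its values were seen, was at 105 ± 23.7 FPKM in WT and 72.8 ± 11.2 FPKM in cKO (SD, n = 3), with a log2 difference of -0.51 (limma adjusted p = 0.380). Its groups were barely separate in FPKM, at 85.4 in cKO 1 and 85.5 in WT 2, and overlapped in recovered reads, at 1540 and 1516 in the same libraries. Summed over gene and copies, the log2 difference in reads, scaled by library total, was -0.09. How the authors' counting divided reads between such copies is not stated. The next largest share was for Hnrnpk, whose 4 copies took 12.6%. In the other members with such copies, the copies took under 1%.

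**Figure D4:**
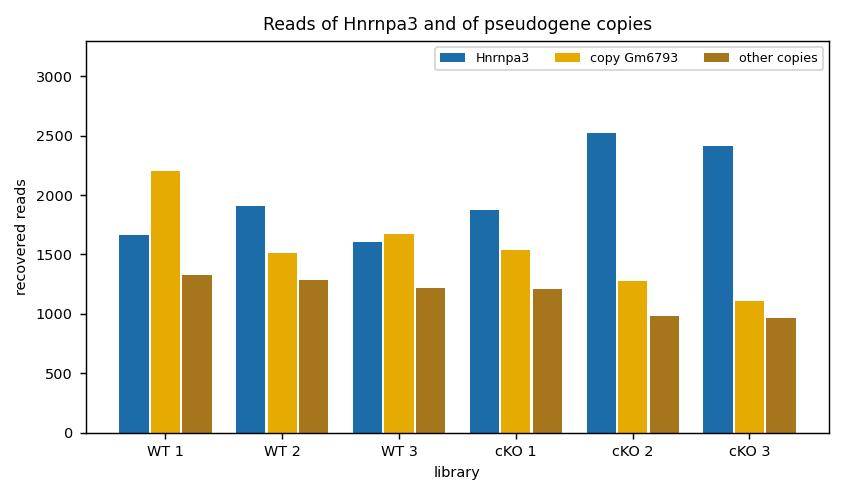
Recovered reads in each library (bars from 0) for Hnrnpa3 (blue), its pseudogene copy Gm6793 (yellow) and the other copies (brown). Reads of the gene are highest in cKO 2 and cKO 3 (2520 and 2417), where reads of the copy are lowest (1280 and 1107).

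The C, F and H types held 1 member with separate groups. Hnrnph3, a short relative of the G-run binders, was at 18.2, 15.3 and 15.6 FPKM in WT and at 12.3, 11.5 and 12.1 FPKM in cKO libraries. The cKO libraries lay close together and all below WT, and the difference in log2 was -0.42 (SE 0.11, limma adjusted p = 0.372, 95% interval -0.67 to -0.16). Removing length and GC trends gave -0.51, farther from 0. Of its 3151 exon bases, 115 also belong to Rufy2 on the opposite strand. Hnrnph1, the most abundant of this group, was at 97.5 to 120.2 FPKM in WT and 91.1 to 121 in cKO. Hnrnph2 and Hnrnpf had log2 differences of -0.01 and 0.08. Hnrnpc, which binds U-rich tracts, stood at -0.12, and its relative Raly at -0.22, with overlap in both.

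Among the KH-domain binders of C-rich RNA, Pcbp1 was at 200.1, 197 and 219.6 FPKM in WT and at 174, 159 and 164 FPKM in cKO libraries. All cKO libraries lay below WT, with a log2 difference of -0.31 (SE 0.12, limma adjusted p = 0.392). That difference was -0.08 with trends removed and -0.18 with quantile normalization, and the gene, with 57.8% GC, is the shortest member at 1830 bases. Its paralog Pcbp2 was at 41.2, 52.0 and 50.5 FPKM in WT and 51.6, 48.5 and 51.0 FPKM in cKO libraries, which overlapped. Exon overlaps of Pcbp2 with Gm26518, Gm27406 and Map3k12, on either strand, sum to 1884 bases, against 5203 exon bases. Hnrnpk, the third of these proteins, had a log2 difference of 0.04 with a 95% interval of -0.25 to 0.33.

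Hnrnpm and Syncrip differed in opposite directions. Hnrnpm, which binds GU-rich RNA, was at 53.1, 37.5 and 40.9 FPKM in WT and at 35.2, 34.0 and 32.3 FPKM in cKO libraries. The high value of WT 1 set much of the log2 difference of -0.35 (SE 0.15, limma adjusted p = 0.403), which was -0.21 without WT replicate 1. In addition, 1169 of its 7956 exon bases belong to a neighbouring gene on the same strand. Syncrip, or hnRNP Q, was at 18.8, 19.6 and 18.6 FPKM in WT and at 21.4, 24.3 and 25.5 FPKM in cKO libraries. These groups did not overlap (log2 difference 0.30, SE 0.11, limma adjusted p = 0.380), but the difference was -0.02 with trends removed. Hnrnpr, its close paralog, was at 8.04 to 8.80 FPKM in WT and 7.13 to 8.46 in cKO.

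Among the U proteins, Hnrnpu, which also helps to organise chromatin, was at 69.7, 70.6 and 71.3 FPKM in WT and 73.5, 74.2 and 71.8 FPKM in cKO libraries. The groups did not overlap, yet the log2 difference was 0.05 with a 95% interval of -0.19 to 0.30, and -0.17 with trends removed. Hnrnpul1 spread most within groups, at 19.4, 31.4 and 30.7 FPKM in WT and 29.1, 20.6 and 24.6 FPKM in cKO libraries. Hnrnpul2 had a log2 difference of -0.04.

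The tissue-biased regulators were present at low to moderate levels. Muscleblind proteins promote adult splicing patterns in muscle and other tissues, and Mbnl2 was at 5.65, 8.27 and 8.37 FPKM in WT and at 8.59, 9.69 and 12.2 FPKM in cKO libraries. The groups touched closely at WT 3 and cKO 1, and the difference on the log2 scale was 0.41 (SE 0.18, limma adjusted p = 0.405), 0.25 without WT replicate 1 and 0.35 with trends removed. Mbnl1 was at 3.43 to 4.70 FPKM in WT and 4.27 to 6.64 in cKO, and Mbnl3 at 0.583 to 1.15 and 0.986 to 1.56. Nova1, best known as a neuronal splicing regulator, was at 1.20, 1.18 and 1.04 FPKM in WT and 1.33, 1.66 and 1.55 FPKM in cKO libraries. Its difference in log2 was 0.23 (SE 0.15, limma adjusted p = 0.533), 0.38 with a pseudocount of 0.1 and -0.04 with trends removed. Rbfox2, the most abundant of the group, was at 25.5 to 36.0 FPKM in WT and 24.7 to 32.3 in cKO. Celf1 and Celf2, which bind GU-rich RNA, had log2 differences of 0.03 and 0.15.

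Of the STAR proteins, Qk, whose product quaking governs splicing and circular RNA formation, was at 22.2, 24.7 and 23.7 FPKM in WT and at 26.9, 31.3 and 32.5 FPKM in cKO libraries. All cKO libraries lay above WT, with a log2 difference of 0.34 (SE 0.12, limma adjusted p = 0.379, 95% interval 0.07 to 0.61), and 0.12 with trends removed. GENCODE M21 has no second gene over its exons. Khdrbs1, or SAM68, and Khdrbs3 had log2 differences of -0.01 and 0.02, with 95% intervals of -0.26 to 0.24 and -0.24 to 0.27. The binders of U-rich and UG-rich RNA all overlapped between groups. Tardbp, which encodes TDP-43, was at 37.4 to 44.0 FPKM in WT and 39.7 to 49.5 in cKO, and Tia1, Tial1 and Elavl1 had log2 differences of 0.14, 0.06 and 0.01.

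**Figure D5:**
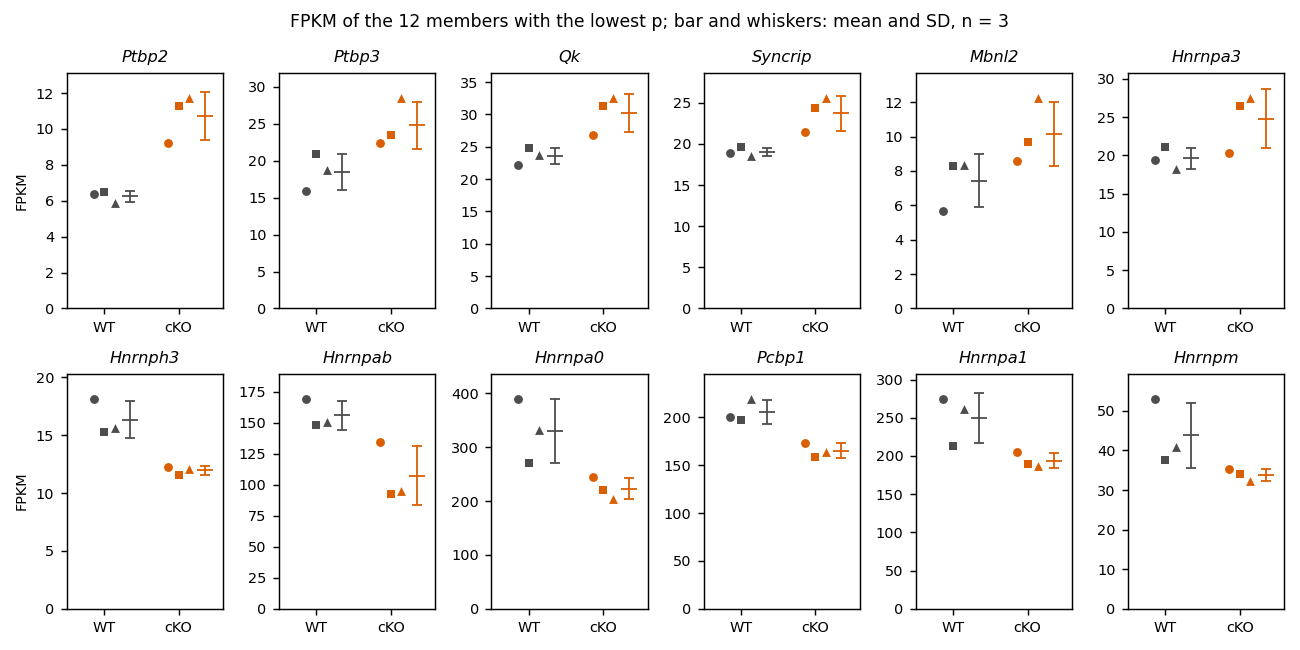
FPKM in each library (vertical axes from 0) for the 12 members with the lowest p, WT in grey and cKO in orange, replicates by shape, with the mean and SD of 3 libraries beside them. The upper row shows members with a higher and the lower row members with a lower cKO mean, and all but Hnrnpa3 have separate groups.

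For the 27 members outside the 14 given with values in every library and a test by the naming rule, log2 differences lay between -0.22 and 0.32, and their 95% intervals between -0.59 and 0.70. Each of these intervals includes 0.

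Other splicing regulators outside these families were counted from a list of 61 genes, of which 45 were tested. No gene of the list passed over all genes, 22 had a positive and 23 a negative log2 difference, and the median was -0.03. At an unadjusted p under 0.05, 2 were higher and 3 lower, 4.44% and 6.67% against the 4.65% and 7.68% of all tested genes. Fmr1, the gene of the fragile X protein, had a WT level of 14.5 ± 0.850 FPKM and a cKO level of 18.8 ± 1.74 FPKM (SD, n = 3). Taf15 was at 21.3 ± 1.10 and 16.2 ± 2.99 FPKM, Dazap1, a partner of the germ cell protein DAZ, at 45.6 ± 3.58 and 35.8 ± 3.89 FPKM, and Msi1, a Musashi protein gene, at 13.1 ± 1.84 and 9.56 ± 2.45 FPKM (SD, n = 3). The fifth, Esrp1, an epithelial splicing regulator named after its values were seen, was at 2.29 ± 0.0959 and 3.22 ± 0.644 FPKM.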

How the data were processed

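The authors deposited 1 table of FPKM per gene for 6 whole-testis RNA libraries. Per the submitters' processing notes the builds named were GRCm38 and mm10, and for the aligner, counting tool, annotation and strand the record reads: not given in the sources used here. Gene positions in the table are not GRCm38 (1499 of 52081 shared identifiers had the GENCODE M21 start), so positions were looked up by identifier in GENCODE M21. Of the 41 members, 23 share exon bases with another gene there, on either strand, and are uncertain to that extent.

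Reads were recovered from FPKM and gene length, and 99.99% of values above 0 came out whole (tolerance 0.01). The test was limma-trend (limma 3.58.1, R 4.3.3) on log2(FPKM + 1), cKO minus WT, for the 14238 genes whose mean reached 1 FPKM. The adjustment was Benjamini-Hochberg and the threshold 0.05. The added 1 makes differences of low genes look smaller than they are. GC content was that of the longest GENCODE M21 transcript, known for 97.9% of tested genes, and trends were natural splines with 5 degrees of freedom. The spread given with members' read shares is the SD between the 3 libraries of a group.

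Members and lists were chosen with earlier results of these data known. The naming rule took the 12 members with the lowest p and those with groups that do not overlap, and of the other splicing regulators the 4 with the lowest p. Paralog ratios were tested by exact permutation. The other settings are given with their effect in the closing section. Pseudogene copies were matched by the protein name in the table's description. Promoters came from RefSeq (GRCm38.p6) and 35 of 41 members matched by symbol. The fit was tested on simulated data. Python 3.11.15, pandas 2.3.3 and numpy 2.4.6 were used for the rest. Protein sequences were not used here, and splicing was not analysed here.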

Additional observations from a re-analysis of the deposited data

How the results depend on the processing

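All 20 other settings gave 0 members past the threshold, with adjusted p of 0.172 or more (limma). The number of genes past it, 2 in all, was 1 with a pseudocount of 0.1 or 0.5, a mean FPKM of at least 5, the TPM scale, voom on recovered reads or protein-coding genes alone, and 0 without a filter, with the replicate block, and without any 1 library (0 to 0).

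The 4 members on the higher side at an unadjusted p under 0.05 became 8 with voom (all genes 5.95%) and 2 with length and GC trends removed (3.15%), against 4.65% of all genes, and ranged from 1 to 7 when 1 library was left out. The 6 on the lower side became 3 with quantile normalization (all genes 7.14%, against 7.68%) and ranged from 1 to 7 when 1 library was left out (3 without WT 3). The lowest value, 1 in both directions, was that without cKO 3, and without cKO 2 both were 2. The members' median was 0.09 on the TPM scale, 0.12 with quantile normalization and -0.08 with trends removed. No scaling moved the median of all genes by more than 0.1.

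Of the 14 members given in full, 11 kept their sign in all settings, while Syncrip, Nova1 and Hnrnpu turned to -0.019, -0.038 and -0.17 with trends removed. Of the other 27, all but Hnrnpd and Mbnl1 changed sign in at least 1 setting. Mbnl1 was not tested in the setting with a mean FPKM of at least 5. Ptbp2 ranged from 0.62 to 0.78 when 1 library was left out, and the difference in its log2 ratio to Ptbp1 from 0.55 to 0.84. Both ranges are without removal of trends, with which Ptbp2 stood at 0.29 and Ptbp1 at 0.13. When 1 library was left out, the difference for Khdrbs3 to Khdrbs1 ranged from -0.035 to 0.091 (negative without cKO 1). That for Hnrnph2 to Hnrnph1 ranged from -0.16 to 0.085, with 0.044 without WT 2, 0.012 without cKO 2 and 0.085 without cKO 3. That for Hnrnpul2 to Hnrnpul1 ranged from -0.041 to 0.22, with -0.041 without WT 3 and -0.030 without cKO 2. The cause of these changes was not tested.

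With the replicate number as a replicate block, 6 members stood on the higher and 4 on the lower side, with 4.54% and 7.19% of all genes. Libraries of the same number share only a number: their deviations correlated at 0.09, -0.33 and 0.39.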
